A study of Mus musculus with 38 samples.

Results

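Kidney tumours of MYC mice were compared with normal kidney by RNA sequencing, to describe how tumours that arose under inducible MYC differ from the organ they grew in. By their titles and labels, every tumour library of genotype MYC+ and every kidney library with a title starting in B6-J or KT-J was taken, which gave 8 of the 38 mouse libraries of the series, 3 of tumour and 5 of kidney. MYC mice carry the transgenes Ksp-rtTA and Tet-O-MYC, so that doxycycline switches MYC on in the renal tubule cells in which the Ksp promoter is active. They received doxycycline in their chow from early adulthood, and the tumours are labelled MYC+ and kept on dox. Tumour 1 came from mouse 2917, whereas tumours 2 and 3 both came from mouse 2983, so the 3 tumour libraries stand for 2 animals. The kidneys are labelled wild type and vehicle. Of these, B61 and B62 carry the prefix B6 and KT1, KT2 and KT3 the prefix KT, which the labels do not explain, and neither age nor sex is given. Genotype, doxycycline, and tumour against whole organ changed together between the groups and cannot be told apart. For a second comparison, 3 VM tumours (Vhl−/−; MYC+) and 3 VIM tumours (Vhl−/−; MYC+; Ink−/−/Arf−/−) from 6 other animals were used, all kept on dox like the MYC tumours, with the Vhl deletion made by a tamoxifen-inducible Cre under the same promoter and Ink4a/Arf deleted in the germline.

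MYC is a transcription factor that binds DNA as a dimer with MAX, often at the E-box sequence CACGTG, and is known for raising genes of ribosome production, nucleotide synthesis and cell division. The adult kidney consists mostly of proximal tubule cells, which reabsorb filtered sugars, amino acids and phosphate, make glucose and burn fatty acids. Further along lie the loop of Henle, the distal convoluted tubule and the collecting duct, each with its own transporters, and around them podocytes, endothelial cells, fibroblasts and immune cells.

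RNA levels were measured as normalised units, scaled by the authors so that the upper quartile of the genes above 0 lies at 1000 in each library. The units are not divided by gene length, so levels are compared between libraries, and the most abundant gene of a list is the one with the most units, with no account of length. Below, values stand in the order tumours 1, 2 and 3, then B61, B62, KT1, KT2 and KT3. The estimated depth was 15.4, 9.44 and 9.59 M reads for the tumours and 11.8, 15.5, 12, 13.4 and 14.2 M reads for the kidneys. A level of 3 reads, 2.80 to 5.19 units depending on the library, was taken as the floor of detection. A fold against a group that lies at or under its floor in every library is given as a lower bound, and a fitted log2 change of such a gene, which depends on the 1 unit added, is no bound.

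Some libraries stood apart from the others of their group before any comparison was made. The X-linked non-coding RNA Xist read 0, 0, 3.63, 1204 and 20506 units in the kidneys, and the Y-linked helicase gene Ddx3y 1396, 1303, 1743, 1448 and 69.6 units. Hence KT3 was high for Xist and low for Ddx3y, KT2 held Xist together with a Ddx3y level like that of the other kidneys, and the tumours resembled B61, B62 and KT1, with at most 15.9 units of Xist and at least 1542 of Ddx3y. KT3 differed from the other kidneys by more than 2-fold in 8.07% to 15.7% of the genes compared, against 1.12% to 3.69% among those 4. The tumours varied more, since tumours 1 and 2 differed by more than 2-fold in 23.3% of genes, tumours 1 and 3 in 17.8% and the 2 tumours of mouse 2983 in 18.7%. In the kidneys a single gene, the androgen-regulated Kap, took 6.04%, 5.37%, 4.16%, 4.35% and 1.30% of all units, whereas Spp1 took 1.34%, 0.593% and 1.72% of the tumours. What sets these libraries apart was not tested, and counts without them are given below.

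Between MYC tumours and kidneys, 6172 of the 16491 genes tested passed (37.4%), 3100 of them higher in the tumours (18.8%) and 3072 lower (18.6%). Genes were tested with limma on log2(value + 1), with the 2 libraries of mouse 2983 averaged, and passed at a two-sided Benjamini-Hochberg adjusted p under 0.05 with a log2 change beyond 1 in size. Log2 changes on this scale understate the change of low genes. In 5578 of those that passed, all 3 tumours lay on the same side of all 5 kidneys. The median log2 change over all genes tested was 0.07. Without KT3, 6434 genes passed, 6213 without KT2 and KT3, and 6149 without tumour 2. Without tumour 1 a single tumour animal is left, so that calls and p-values without it rest on the spread of the kidneys. An exact two-sided permutation p for 2 tumour animals against 5 kidneys, taken by doubling the one-sided p, cannot lie under 0.0952. The calls therefore rest on the assumed distribution of the log2 values. With no variance shared across genes, 5481 genes passed.

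**Figure D1:**
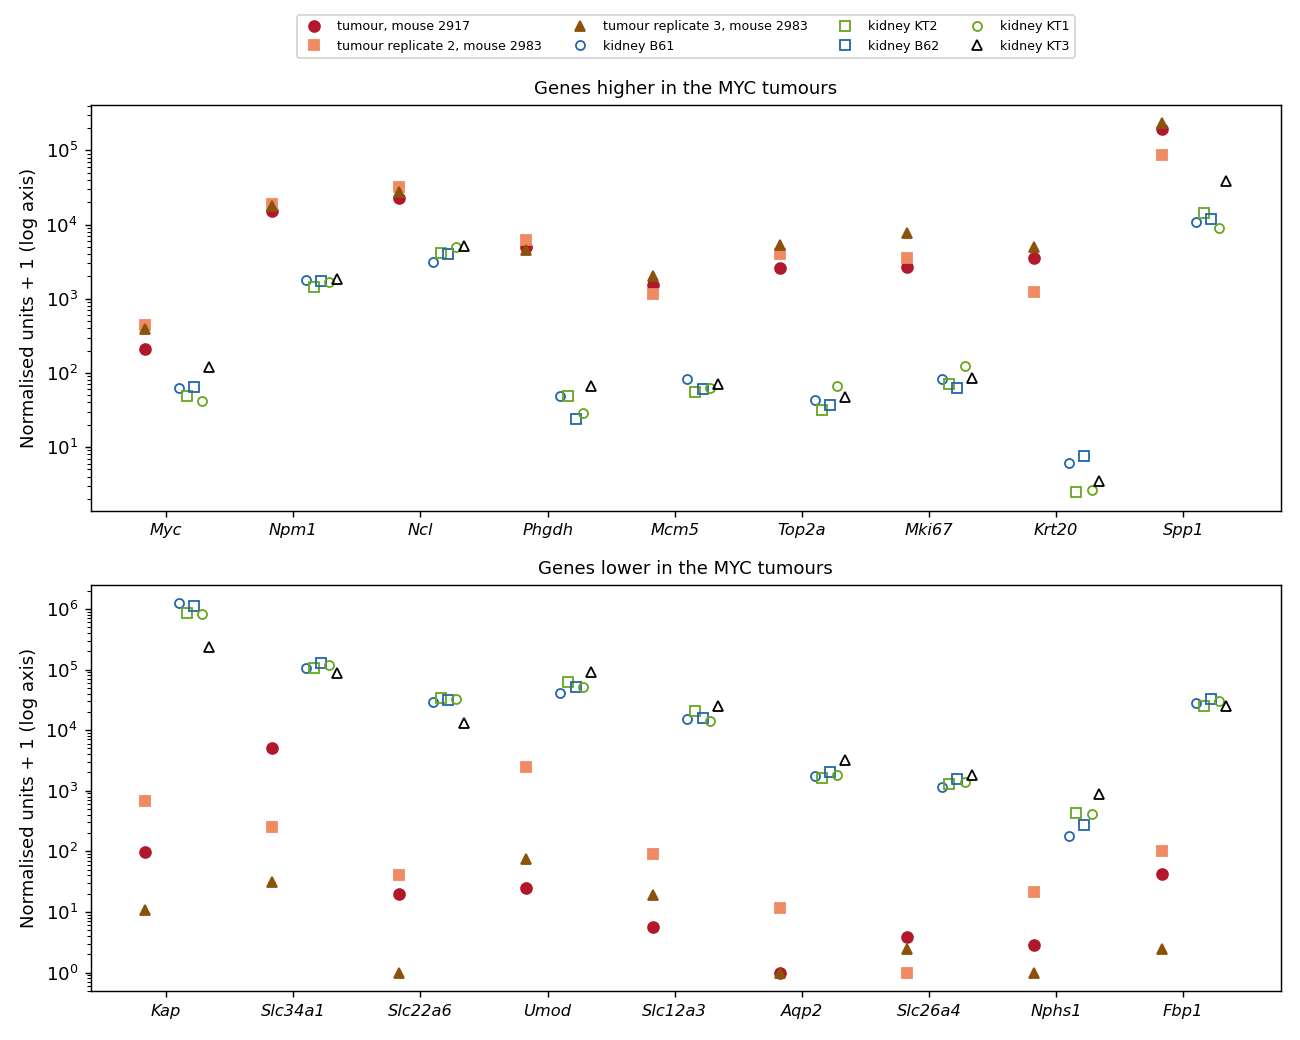
Normalised units + 1 on a log axis in each of the 3 MYC tumours (filled symbols) and 5 kidneys (open symbols), for 9 genes higher in the tumours above and 9 lower below. Phgdh ranges from 4493 to 6134 units in the tumours and from 22.8 to 65.8 in the kidneys, whereas Umod ranges from 24.3 to 2475 and from 40327 to 91620.5.

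Myc itself (mm9 chr15:61816946-61821929, plus strand) read 208, 438 and 389.8 units in the tumours and 62.3, 64.3, 40.7, 48.2 and 119 in the kidneys. All tumours lay above all kidneys, 4.65-fold by the means of animals (log2 change 2.22 ± 0.46 SE, limma adjusted p = 0.00427). How many reads of the transgene are counted at the mouse gene was not tested. Of the 13 genes of the MYC and MAX network, 6 rose and 2 fell, beside 18.8% and 18.6% of all genes, with a median log2 change of 0.60 beside 0.07 over all genes. The largest rise was that of Mxd3, a MAX partner that represses MYC targets, with 143, 75.7 and 163 units in the tumours and 6.94, 9.398, 14.7, 4.39 and 8.87 in the kidneys. Its groups did not overlap (log2 change 3.77 ± 0.49 SE, limma adjusted p = 4.27e-04). Mycn, the neuronal relative of MYC, moved the other way, from 46.7, 46.9, 61.9, 56.9 and 60.7 units in the kidneys to 4.66, 12.3 and 7.06 in the tumours, again without overlap (log2 change -2.85 ± 0.39 SE, limma adjusted p = 5.66e-04). Max, the obligate partner of MYC, read 1585, 2009 and 1566 against 697, 756, 656, 603 and 763 units, 2.43-fold higher with an adjusted p of 1.96e-04 by limma. Mlx, which pairs with the glucose-sensing MondoA and ChREBP proteins, fell (log2 change -1.91), and the MAX-binding repressors Mxi1, Mnt and Mga rose by 1.54, 1.38 and 1.44. Mxd1, Mxd4, Mycl1, Mlxip and Mlxipl did not pass.

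Genes of ribosome production rose nearly throughout. Of the 36 genes for rRNA synthesis, processing and ribosome assembly, 31 rose, none fell and 5 did not pass, with a median log2 change of 2.25. Npm1, which encodes the nucleolar chaperone nucleophosmin, read 15330.2, 19199 and 17932 units in the tumours and 1782, 1724, 1658, 1454 and 1834 in the kidneys. Every tumour lay far above every kidney, 10.03-fold by the means (log2 change 3.32 ± 0.15 SE, limma adjusted p = 2.90e-06). Nop56, a core protein of the snoRNPs that methylate rRNA, read 2347, 4301 and 2371 and 289, 284, 264, 261 and 320.1 units, with the same separation of the groups and a log2 change of 3.27. Ppan, Dkc1 and Nle1, which act in ribosome assembly and rRNA pseudouridylation, rose by 3.20, 3.17 and 2.98 on the log2 scale. Among genes of RNA polymerase I, the subunit genes Polr1a, Polr1b, Polr1c and Polr1e rose by 2.64, 2.26, 1.06 and 1.26. Polr1d read 2836, 1721 and 1822 against 1913, 1565, 1057, 1342 and 1166 units and did not pass. The initiation factor genes Ubtf and Rrn3 rose by 1.34 and 1.08. Npm1 has many processed pseudogenes in the genome, so the share of its reads that belong to the gene itself is uncertain.

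Since MYC binds the E-box CACGTG, a palindrome that reads alike on both strands, the 250 bases before the start of these genes were searched for it in RefSeq promoter windows (GRCm38.p6). Of the 36 genes, 30 were matched by symbol and 2 of them, or 6.67%, held the motif, against 9.24% of the 11532 tested genes that could be matched to a window and 6.86% of all 27025 genes with a window. A match is a description of the letters only, and sequence beyond these 250 bases was not searched. The 2 that held it, Nop2, an rRNA methyltransferase gene at chr6:125131796-125131855 on the plus strand, and Rrn3, at chr16:13780624-13780683 on the plus strand, are shown over 60 bases with the motif in capitals, because both rose (Nop2 2.12 and Rrn3 1.08 on the log2 scale). Rrn3 holds a further copy outside the stretch.
Nop2: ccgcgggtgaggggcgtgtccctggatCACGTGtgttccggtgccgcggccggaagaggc
Rrn3: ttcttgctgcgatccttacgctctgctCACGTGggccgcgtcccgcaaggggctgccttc

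Of 31 genes for the synthesis of nucleotides, folate intermediates and polyamines, 22 rose, 2 fell and 7 did not pass (median log2 change 1.55). Phgdh encodes the enzyme that commits a glycolytic intermediate to serine synthesis, and read 5061, 6134 and 4493 units in the tumours and 48.4, 22.8, 27.7, 48.2 and 65.8 in the kidneys. Every tumour lay far above every kidney, 122-fold by the means (log2 change 6.99 ± 0.41 SE, limma adjusted p = 1.14e-05). Mthfd1l, a mitochondrial folate enzyme that releases formate, read 766, 1094 and 921 against 22.5, 12.05, 14.7, 21.9 and 17.7 units, without overlap (log2 change 5.58). Cad, which carries the initial steps of pyrimidine synthesis, read 2027, 3109.6 and 2610.2 against 93.4, 135, 109, 108 and 220.1 units (log2 change 4.23 ± 0.33 SE, limma adjusted p = 4.27e-05). Rrm2 and Rrm1, the subunits of ribonucleotide reductase, rose by 3.96 and 3.66, with tumour 3 highest for both. Odc1, the rate-limiting enzyme of polyamine synthesis, fell, and read 4091, 3128 and 4192 units in the tumours and 55057, 43252, 39369.7, 35996 and 6553 in the kidneys, of which KT3 was far lower than the other 4 but still above the tumours (log2 change -2.93 ± 0.74 SE, limma adjusted p = 0.0111). Shmt2 and Paics, although on the same pathways, did not pass, at -0.53 and 0.44.

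The mitosis and DNA replication genes had the highest medians of all the gene lists. Of 28 replication genes, 27 rose and Gins4 alone did not pass, with a median log2 change of 3.14. Pole, the catalytic subunit of DNA polymerase epsilon, read 618, 969 and 1079 units in the tumours and 5.19, 12.05, 11.4, 8.76 and 13.9 in the kidneys. The groups lay far apart, 79.98-fold by the means (log2 change 6.21 ± 0.46 SE, limma adjusted p = 3.26e-05). Cdc6 and Orc1, which load the replicative helicase at origins, were near the floor in kidney. Cdc6 read 214, 159 and 304 against 5.19, 1.34, 4.89, 0 and 8.86 units, and Orc1 90.5, 135 and 114 against 0, 0, 1.63, 1.46 and 3.39, at least 20.7-fold higher. The helicase genes Mcm2, Mcm3, Mcm4, Mcm5, Mcm6 and Mcm7 all rose, by 2.95, 4.79, 3.21, 4.56, 2.75 and 3.18. All 26 mitosis and spindle genes rose, with a median of 5.55. Tpx2, a spindle assembly factor that activates Aurora A, read 698, 1352 and 1629.9 and 13.8, 6.69, 19.5, 2.92 and 22.8 units (log2 change 6.45 ± 0.74 SE, limma adjusted p = 2.34e-04). The checkpoint kinase genes Ttk and Bub1 rose by 6.37 and 6.36. Top2a, which untangles sister chromatids, read 2570.0, 3994 and 5373 units in the tumours and 41.5, 36.1, 65.1, 30.7 and 46.8 in the kidneys, 82.3-fold apart by the means. Mki67, the proliferation marker Ki-67, read 2702, 3569 and 7685 against 81.3, 61.6, 122, 70.1 and 83.5 units, again with tumour 3 the highest and all kidneys far below (log2 change 5.51 ± 0.33 SE, limma adjusted p = 1.28e-05).

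Of 16 genes for G1 cyclins, their kinases, E2F factors and the RB family, 10 rose and Ccnd1 alone fell (median 1.65). E2f7, a repressor of the E2F family, read 86.8, 97.2 and 194 units in the tumours and 0, 0, 6.51, 7.299 and 3.795 in the kidneys, and Ccne1, which encodes cyclin E1, 197, 191 and 202 and 5.19, 6.69, 1.63, 10.2 and 3.795. Both were separated between the groups, with log2 changes of 5.14 and 5.08 and limma adjusted p of 0.00287 and 2.36e-04. Cdk4 rose 4.68-fold, from 1489.6, 1576, 1142, 1175 and 1223 to 6125, 5616 and 6849 units. Ccnd1, for cyclin D1, read 2857, 896 and 1518 against 3795, 6379, 7759, 2671 and 4761 units, so that tumour 1 overlapped the kidneys (log2 change -1.38 ± 0.46 SE, limma adjusted p = 0.0345). Its call was lost without B62, KT1 or KT3, at log2 changes of -1.27, -1.20 and -1.37 (adjusted p = 0.0659, 0.0592 and 0.0508), which left no gene of the list lower. Among 7 CDK inhibitor genes, 4 rose and 1 fell (median 1.08), beside 18.8% higher and 18.6% lower over all genes. However, 2 were higher with no filter, with no moderation of the variance, with all 13 tissue animals in 1 model and with the B6 kidneys alone. Cdkn2a (mm9 chr4:88920377-88940557, minus strand), the locus of p16 and p19Arf, read 108, 2872 and 59.3 units in the tumours and 1.73, 1.34, 0, 0 and 3.795 in the kidneys. The kidneys all lay at or under the floor, and tumour 2 stood far above the other tumours. The mean of the tumours was at least 152-fold higher, a bound of 16.1 without tumour 2, 282 without tumour 1 and 287 without tumour 3. Its neighbour Cdkn2b, for p15, read 207, 285 and 169 against 3.46, 4.02, 3.26, 1.46 and 6.33 units, with tumour 2 close to the other tumours (log2 change 5.60 ± 0.49 SE, limma adjusted p = 7.06e-05). Cdkn1c, the imprinted p57 gene, fell with 17.7, 165 and 4.24 against 182, 199, 221, 216 and 421 units, a log2 change of -3.33 that was -2.09 without tumour 3. Of p53 and 17 of its targets, 8 rose, Ccng1 fell and 9 did not pass (median 0.82), beside the same shares over all genes. Ckap2 and the apoptosis gene Bbc3, which encodes PUMA, rose most, by 5.08 and 4.11. Trp53 read 2092, 1699 and 2236 units in the tumours and 369, 400.3, 449.5, 371 and 383 in the kidneys, without overlap (log2 change 2.36 ± 0.14 SE, limma adjusted p = 1.11e-05), whereas Mdm2, its inhibitor, read 804, 997 and 1069 and 1277, 1171, 889, 1206 and 968 and did not pass.

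Genes of the proximal tubule fell nearly throughout. Of 30 such genes, none rose, 28 fell and Slc7a8 and Amn did not pass, with a median log2 change of -6.18. Slc7a8 had a log2 change of -0.46, or -1.35 without tumour 1. Kap (mm9 chr6:133799873-133803685, minus strand), an androgen-regulated gene of the proximal tubule, read 97.01, 685 and 9.89 units in the tumours and 1234950, 1117526, 813562, 849961 and 233226 in the kidneys. The lowest kidney, KT3, still lay far above the highest tumour (log2 change -12.97 ± 0.66 SE, limma adjusted p = 6.12e-06). Slc22a12, the urate transporter URAT1, read 10.3, 91.7 and 0 and 45898, 48072, 51000.4, 48987 and 23402 units (log2 change -11.97 ± 0.30 SE, limma adjusted p = 3.19e-07). Miox, which breaks down inositol, and Slc22a6, the organic anion transporter OAT1, followed with 32.6, 32.4 and 0 against 37723, 40428, 25278, 30164 and 40944 and 18.7, 40.1 and 0 against 28564, 31343, 32149.8, 33809 and 13122 units. Both were at 0 in tumour 3, as were Slc22a12, Slc34a3 and Slc13a1. The phosphate transporter gene Slc34a1 read 5019.6, 252 and 29.7 units in the tumours, against 105882, 126599.7, 120476, 106061 and 86261 in the kidneys, so that tumour 1 held more than the tumours of mouse 2983 but far less than any kidney (log2 change -7.35 ± 1.23 SE, limma adjusted p = 0.00153). Lrp2, the endocytic receptor megalin, read 4633, 2043 and 2982 against 33898, 37203, 35143, 37428 and 53957 units and fell by less (log2 change -3.52). Summed over the list, the tumours held 53802, 14503 and 15517 units and the kidneys 2050661, 2026632, 1696902, 1667080 and 895692, led by Slc4a4 in tumour 1, Lrp2 in tumours 2 and 3 and Kap in every kidney. Fewer cells of a type and less RNA per cell cannot be told apart in these bulk samples, here and for every other cell type below. Of 9 genes for glucose synthesis and fructose use, 8 fell (median -3.74). Fbp1, a rate-limiting enzyme of gluconeogenesis, read 41.98, 102 and 1.41 units against 27654, 32469, 29712, 24729.9 and 24539, without overlap (log2 change -10.05 ± 0.34 SE, limma adjusted p = 9.75e-07). G6pc and Pck1, which complete and start the pathway, changed by -7.86 and -7.46. The exception, Slc2a2, read 5391, 98.8 and 641 against 4514, 5158, 5028, 3762 and 3832 units, with tumour 1 above all kidneys. Slc2a2 did not pass (-1.92), and its log2 change without that tumour was -4.13. It passed with the 3 tumour libraries as independent (-2.66) or with the animal as a block (-2.85).

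The same held for the tubule beyond the proximal segment. Of the loop of Henle genes, 9 of 10 fell, of the distal convoluted tubule genes 6 of 7, of the principal cell genes of the collecting duct 9 of 10, and of the intercalated cell genes 9 of 9. Their median log2 changes were -8.55, -7.69, -7.50 and -7.61, or -6.58, -6.97 and -6.97 for the last 3 with genes under the floor set to their bound. Slc12a1, the loop's sodium-potassium-chloride cotransporter NKCC2 and the target of loop diuretics, read 8.396, 187 and 0 units in the tumours and 7709, 9645, 13363, 14527 and 28571 in the kidneys. KT3 was highest and tumour 3 at 0, and all tumours lay under all kidneys (log2 change -10.19 ± 0.45 SE, limma adjusted p = 2.89e-06). Kcnj1, the potassium channel ROMK, changed by -9.93. Umod, the loop's most abundant secreted protein, read 24.3, 2475 and 74.9 units against 40327, 51458, 51876, 62219 and 91620.5, with tumour 2 the highest tumour (log2 change -9.10 ± 0.90 SE, limma adjusted p = 1.15e-04). Cldn19 is the member of that list that did not pass, with 0, 169.8 and 1143 against 277, 297, 412, 445 and 956 units, although without tumour 3 its log2 change was -5.04 (adjusted p = 0.0291). In the distal convoluted tubule, the calcium-binding gene Calb1 read 3.73, 6.17 and 0 and 7749, 10684, 8845, 10873 and 13475 units (log2 change -11.48 ± 0.27 SE, limma adjusted p = 2.00e-07), Slc12a3, the thiazide-sensitive cotransporter, changed by -10.16, and Pvalb, at 0 in every tumour, was at least 95.5-fold lower. Trpm6, a magnesium channel, did not pass (-0.11). Aqp2, the vasopressin-regulated water channel of principal cells, read 0, 10.8 and 0 against 1763, 2003, 1827, 1645 and 3185 units (log2 change -10.09 ± 0.46 SE, limma adjusted p = 3.25e-06), and the sodium channel subunit genes Scnn1a, Scnn1b and Scnn1g changed by -6.45, -8.07 and -8.72. Slc26a4, the pendrin exchanger of intercalated cells, read 2.799, 0 and 1.41 against 1166, 1564, 1414, 1272 and 1806 units, at least 312-fold lower. The summed principal cell level was 29.9, 233 and 49.4 units in the tumours and 8740.5, 10083, 11362, 10953 and 21093 in the kidneys, with Aqp2 at 0 in tumours 1 and 3. For the loop it was 1264, 3273 and 1556 and 87208, 103478, 108959, 128650 and 203012 units, for the distal convoluted tubule 4743, 1372 and 1602 and 46756, 53653, 52285, 60095 and 68909.6, and for intercalated cells 63.4, 347 and 305 and 8356, 9843, 8762, 9937 and 14806. The most abundant gene of the loop list was Umod in every kidney and in tumour 2, Cldn10 in tumour 1 and Cldn19 in tumour 3. For the distal tubule it was Kl, or Slc12a3 in KT3. For principal cells it was Scnn1a or Hsd11b2, or Aqp4 in KT3, and for intercalated cells Rhcg or Atp6v1b1 in the kidneys and Atp6v0d2 or Atp6v1g3 in the tumours. Without tumour 1, the fall of Aqp4 (-7.01) did not pass, at -5.63 (adjusted p = 0.0857), and that of Atp6v1g3 went from -6.92 to -4.54. KT3 was the highest kidney for each of these sums, whereas it was the lowest for the proximal tubule.

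Of 7 podocyte genes, which mark the filter of the glomerulus, 4 fell (median -2.72). Nphs1, for nephrin of the slit diaphragm, read 1.87, 20.1 and 0 units in the tumours and 175, 274, 410.4, 433 and 868 in the kidneys, with tumour 3 at 0 for it and for Wt1. The groups did not overlap (log2 change -6.70 ± 0.57 SE, limma adjusted p = 5.90e-05). Wt1, a transcription factor of podocytes, changed by -5.24. Podxl, the most abundant gene of the list in every library, read 1589, 1907 and 1982 against 2201, 2577, 3534, 3161 and 6004 units and did not pass (-0.90), but did so without B61, at -1.04 (adjusted p = 0.0327). The list summed to 2502, 3681 and 3167 units in the tumours and 4453, 5256, 6495, 6601 and 12076 in the kidneys.

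Of 26 tested transcription factor genes of the renal lineage, 3 rose, 13 fell and 10 did not pass (median -1.51), beside 18.8% higher and 18.6% lower over all genes. Six2 was too low to test. With the B6 kidneys alone, 5 were higher and 7 lower. Esrrb, a nuclear receptor, read 0.933, 16.98 and 0 units in the tumours and 398, 394, 386, 434 and 768 in the kidneys (log2 change -7.32 ± 0.41 SE, limma adjusted p = 9.46e-06), and Tfap2b, a factor of the distal tubule, 0, 24.7 and 106 and 445, 467, 544, 777 and 1097. Neither overlapped, and the change of Tfap2b, -6.44, was -3.58 without tumour 1. Gata3, a factor of the collecting duct, changed by -5.21. Pax8, which is needed to form the nephron and stains most renal tumours, rose instead, with 2371, 3424 and 3547 units against 898, 1116, 1217, 1036 and 1147 (log2 change 1.42 ± 0.18 SE, limma adjusted p = 4.31e-04). Hnf4a, the regulator of proximal tubule genes, read 7565, 4472 and 4157 units against 14259.5, 16846, 17332, 16870.1 and 15099, 2.71-fold lower by the means (log2 change -1.49 ± 0.24 SE, limma adjusted p = 0.00136), a call lost with quantile normalisation.

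Of 22 genes that mark injured or dedifferentiated tubules, 13 rose, Krt7 fell and 8 did not pass (median 2.59). Krt20 (mm9 chr11:99289717-99299464, minus strand), an intermediate filament of gut and urothelium that also marks injured tubules, read 3515, 1231 and 5032 units in the tumours and 5.19, 6.69, 1.63, 1.46 and 2.53 in the kidneys. It was at most 6.69 units in any kidney and above the floor in B62 alone, so that the 949-fold rise by the means rests on few kidney reads. Krt20 also had the largest rise on the log2 scale among the genes ranked below (log2 change 9.51 ± 0.56 SE, limma adjusted p = 1.17e-05). Krt7, a keratin of the collecting duct and urothelium, moved the other way, with 13.99, 438 and 9.89 against 926, 1158, 1187, 1308 and 2092 units (log2 change -5.32 ± 0.54 SE, limma adjusted p = 1.28e-04). Cdh6, a cadherin of the embryonic nephron, read 750, 637 and 2627 and 12.1, 14.7, 19.5, 42.3 and 237 units, and Cd44, a hyaluronan receptor, 2052, 1281 and 2274 and 53.6, 88.4, 63.5, 48.2 and 98.7. Cdh6 was highest in tumour 3 and, among kidneys, in KT3 (log2 change 4.87), whereas Cd44 was even within each group (4.77). Spp1 (mm9 chr5:104864137-104870069, plus strand), for the secreted phosphoprotein osteopontin, read 192279.9, 86373 and 233606 units against 10694, 11760.4, 8958, 14489 and 38220.1, led by KT3 among the kidneys (log2 change 3.52 ± 0.55 SE, limma adjusted p = 0.00105). Havcr1, for the injury marker KIM-1, read 1271, 427 and 212 units in the tumours and 336, 182, 14.7, 42.3 and 8.86 in the kidneys, with overlap, and did not pass (log2 change 3.55). It passed without tumour 3, B61 or B62, at 3.80, 4.22 and 4.0 (adjusted p = 0.0441, 0.0236 and 0.0473). Lcn2, for neutrophil gelatinase-associated lipocalin, read 26.1, 1951 and 45.2 units in the tumours and 17.3, 24.1, 6.51, 2.92 and 15.2 in the kidneys, so that its call rested on tumour 2 (log2 change 2.95, and 1.60 without tumour 2, adjusted p = 0.11). It was also lost without B61, KT1 or KT2, at 3.11, 2.79 and 2.55 (adjusted p = 0.0541, 0.0759 and 0.0658), and the log2 change without tumour 1 was 4.68. The genes lower were 2 in place of 1 without tumour 2.

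Of 14 epithelial junction genes, 2 rose, 5 fell and 7 did not pass (median -0.73), beside 18.8% higher and 18.6% lower over all genes. The lower genes were 7 without tumour 2 and 3 with edgeR on recovered reads. Cldn8, a claudin of the distal nephron, read 1.87, 103 and 9.89 units in the tumours and 1659, 1807, 1792, 2142 and 2984 in the kidneys, with tumour 2 the highest tumour and no overlap (log2 change -7.69 ± 0.77 SE, limma adjusted p = 1.23e-04). Epcam, an adhesion molecule of the distal nephron, read 17.7, 926 and 14.1 and 758, 830.0, 881, 1248 and 1996 units. Tumour 2 lay among the kidneys while tumours 1 and 3 lay far under them (log2 change -4.50), and the call was lost without tumour 3, at -3.02 (adjusted p = 0.0685). Without tumour 3 the lower genes were 2 in place of 5. Cdh1, for E-cadherin, fell from 2600.3, 2818, 3326, 3775 and 4372 to 446, 1339.5 and 335 units (log2 change -2.60), while the kidney cadherin Cdh16 read 13766, 12503 and 10230.2 and 16888, 20501, 18226, 19428 and 23962 and did not pass. Cldn3 rose by 3.98. Of 6 transcription factor genes of epithelial-mesenchymal transition, Snai2 fell (-2.91), Zeb2 rose (1.32) and Snai1, Twist1, Twist2 and Zeb1 did not pass (median -0.28). Snai1 passed as lower without tumour 2 or B62, at -2.16 and -1.60.

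**Figure D2:**
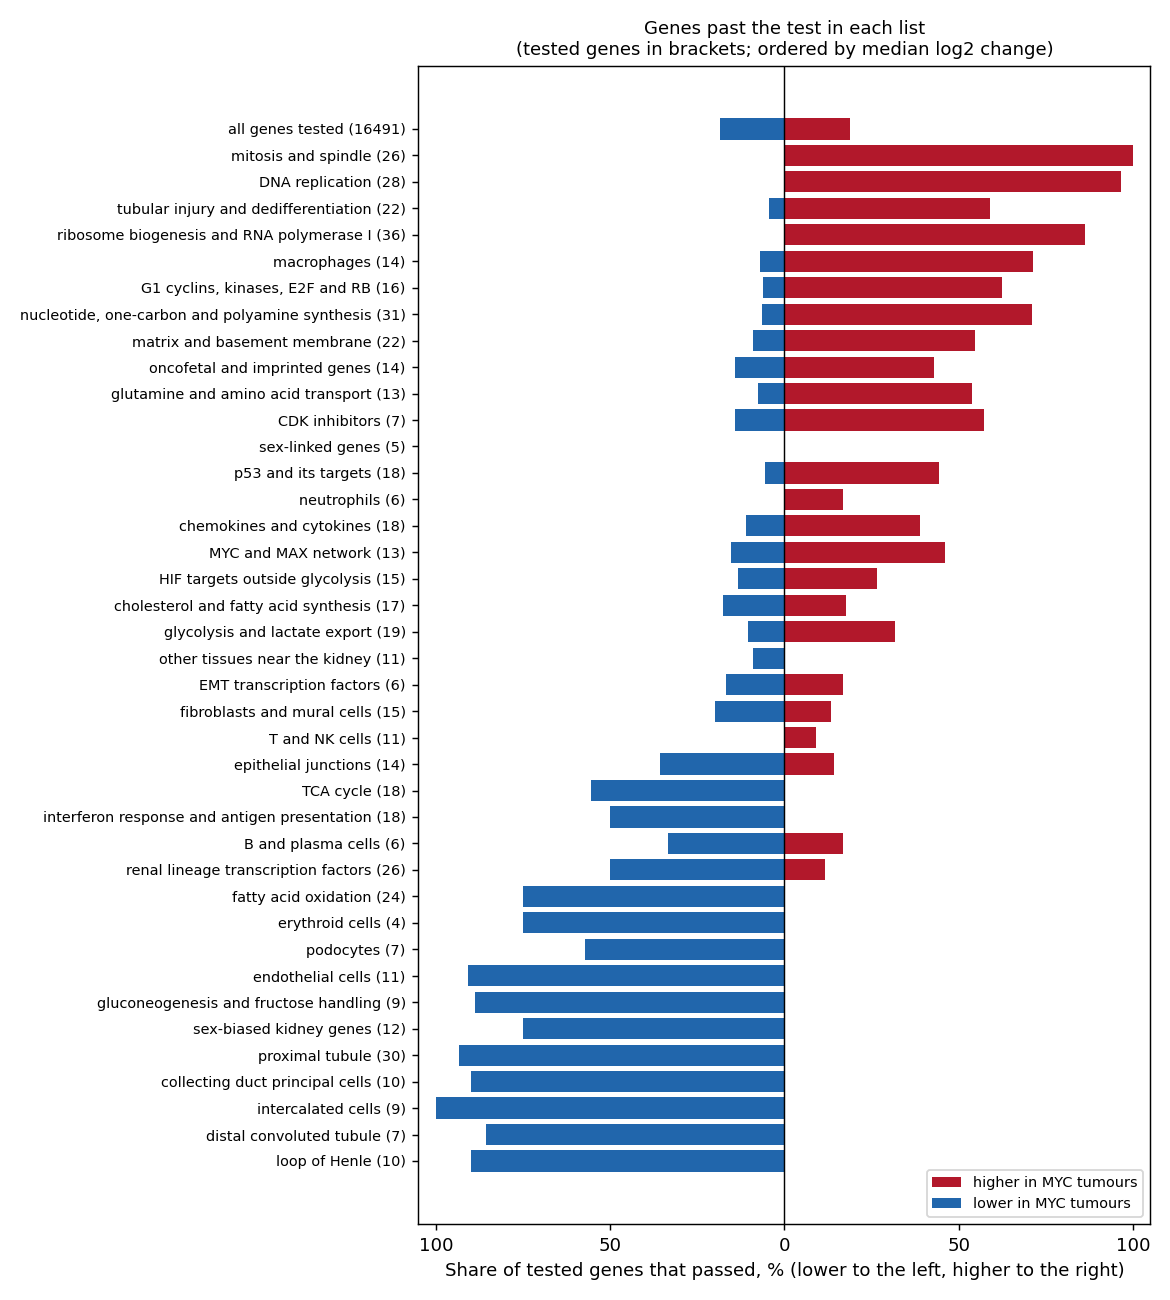
Share of the tested genes of each list that passed as higher (red, to the right) or lower (blue, to the left) in MYC tumours, in percent, with the number of tested genes in brackets and lists ordered by median log2 change. All 26 mitosis genes rose and 28 of 30 proximal tubule genes fell, beside 18.8% higher and 18.6% lower over all genes.

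Of 19 glycolysis genes, 6 rose, 2 fell and 11 did not pass, beside 18.8% higher and 18.6% lower over all genes, with a median log2 change of 0.30 that was 0.94 with quantile normalisation. Hk2, the hexokinase typical of growing cells, read 388, 1182 and 694 units in the tumours and 10.4, 12.05, 13.03, 13.1 and 13.9 in the kidneys, 53.02-fold apart by the means (log2 change 5.46 ± 0.41 SE, limma adjusted p = 3.48e-05). Slc16a3, the lactate exporter MCT4, read 39.3, 1672 and 474 and 5.76, 5.35, 10.7, 4.18 and 4.45 units, lowest in tumour 1 but above every kidney (log2 change 4.81 ± 1.03 SE, limma adjusted p = 0.00488), and Slc16a1, for MCT1, rose by 2.66. Hk1 fell, with 121, 955 and 349 against 1028, 1071, 1397, 1558 and 2516 units, by a log2 change of -2.43, or -1.31 without tumour 1. Slc2a1, the glucose transporter GLUT1, read 288, 2353 and 1514 units in the tumours and 512, 564, 704, 768 and 1285 in the kidneys. Tumour 1 lay under and tumours 2 and 3 over every kidney, and the gene did not pass (log2 change 0.03, and 1.38 without tumour 1). Tumour 1 stood apart for the targets of hypoxia-inducible factor too. Of 15 outside glycolysis, 4 rose and 2 fell (median 0.33), but without tumour 1 the counts were 8 and 1. Pdk1, which keeps pyruvate out of mitochondria, rose in all tumours (2.28). Car9, the HIF target carbonic anhydrase IX, read 21.5, 611 and 564 units in the tumours and 196, 371, 296, 191 and 145 in the kidneys. Its log2 change of -0.99, which did not pass, was 1.37 without tumour 1. Vegfa, for the endothelial growth factor, read 765, 3057 and 2051 and 4021, 3972, 4168, 4626 and 4144 units and fell (-1.59), a call lost without tumour 1 (-0.74). Car12, the other gene that fell, has a log2 change of -1.01 at the threshold, and fell short of it without tumour 2, B62, KT1 or KT3 (-0.95, -0.99, -0.90 and -0.95), so that 1 gene was lower in each case.

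Of 24 fatty acid oxidation genes, 18 fell and none rose, with a median of -1.72. Cyp4a10, a fatty acid hydroxylase induced by PPARα, read 14.9, 16.98 and 1.41 units in the tumours and 1613, 1134, 2627, 4509 and 7827 in the kidneys. All tumours lay far under all kidneys, among which KT3 was highest (log2 change -8.09 ± 0.71 SE, limma adjusted p = 7.06e-05). It belongs to a family of close copies, among which reads may be divided differently. Ehhadh and Acaa1b of the peroxisomal pathway changed by -3.96 and -3.86. Ppara, for the receptor PPARα itself, read 377, 419.8 and 87.6 and 3289, 3627, 4003, 3564 and 3847 units (log2 change -3.76 ± 0.23 SE, limma adjusted p = 1.51e-05), and Cpt1a, the entry enzyme of mitochondria, 5059, 4005 and 4247 and 8471, 9422, 11420.2, 12119.7 and 8784 (-1.12), a call lost with quantile normalisation. In the TCA cycle, 10 of 18 genes fell and none rose (median -1.03), and 3 genes were lower, with a median of -0.42, under quantile normalisation. Idh1, the cytosolic isocitrate dehydrogenase, read 1339.6, 1265 and 983 units against 11924, 12506, 12417, 14457 and 15297, 10.8-fold lower by the means (log2 change -3.44 ± 0.17 SE, limma adjusted p = 5.55e-06). Sdhb, a subunit of succinate dehydrogenase, changed by -2.17. Cholesterol and fatty acid synthesis had 3 genes higher, 3 lower and 11 not passed of 17 tested (median 0.31), close to the 18.8% and 18.6% over all genes, with 5 higher without KT3. Cyp51, of the cholesterol pathway, fell with 661, 1387 and 627 against 7478, 6137, 6572, 10787 and 7933 units (log2 change -3.28 ± 0.24 SE, limma adjusted p = 3.24e-05), while Scd2 and Fasn of fatty acid synthesis rose by 2.36 and 2.06. Of 13 genes of glutamine use and amino acid transport, 7 rose and 1 fell (median 1.15). Slc7a5, the large neutral amino acid transporter LAT1, read 1120.3, 2844 and 4582 units in the tumours and 44.98, 40.2, 43.97, 36.5 and 68.3 in the kidneys, without overlap (log2 change 5.43 ± 0.45 SE, limma adjusted p = 5.40e-05). Asns, which makes asparagine, and Slc1a5, the glutamine transporter ASCT2, rose by 4.32 and 2.75, and Glud1 fell (-1.24).

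Of 14 tested oncofetal and imprinted genes, 6 rose, 2 fell and 6 did not pass, beside 18.8% higher and 18.6% lower over all genes. The median log2 change of the list was 1.18, but 0.10 without tumour 2. Peg3, an imprinted zinc finger gene, fell, with 1.87, 30.9 and 2.82 units in the tumours and 185, 108, 184, 223 and 355 in the kidneys. All tumours lay under all kidneys (log2 change -5.13 ± 0.60 SE, limma adjusted p = 2.59e-04). Hmga1, a chromatin architecture gene of embryonic and tumour cells, read 1734, 2326 and 2230.2 and 86.5, 131, 156, 115 and 118 units, 16.5-fold higher (log2 change 4.05 ± 0.25 SE, limma adjusted p = 1.49e-05). The mRNA-binding genes Igf2bp1 and Igf2bp2 moved in opposite directions, by -3.52 and 3.46, so that Peg3 and Igf2bp1 made up the 2 genes that fell. The imprinted non-coding RNA H19 (mm9 chr7:149761434-149764048, minus strand), which overlaps the microRNA gene Mir675 on its own strand, read 0.933, 818 and 1.41 units in the tumours and 0 in every kidney. It was thus above the floor in tumour 2 alone. Its fitted log2 change of 3.21 was 1.11 without tumour 2 and 5.31 without tumour 3. Lin28b, a fetal regulator of let-7 microRNAs, read 0, 61.7 and 53.7 units in the tumours and 0 in every kidney, and was too sparse to test. Grb10, an imprinted adaptor of insulin signalling, spread widely among the tumours, at 4109, 1179 and 98.9 units against 721, 783, 787, 826 and 988. It did not pass (0.54), was lower without tumour 1 (-1.25) and higher without tumour 3 (1.43).

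Macrophage genes were higher in the tumours. Of 14, 10 rose, Ccr2 fell and 3 did not pass, with a median log2 change of 2.07, or 2.25 with bounds. The list summed to 28138, 7944 and 7544 units in the tumours and 2732, 2531, 2669, 2575 and 3576 in the kidneys, led by Lyz2 in tumours 1 and 3, by Cd14 in tumour 2 and by Csf1r or Lyz2 in kidneys. Cd14, a receptor for bacterial lipopolysaccharide, read 2768, 1782 and 1620.1 units against 91.7, 89.7, 70.03, 81.8 and 104, without overlap (log2 change 4.63 ± 0.25 SE, limma adjusted p = 8.45e-06). Cd68, a lysosomal marker, changed by 3.90. Lyz2, for lysozyme, read 11299, 1609.6 and 1801 units in the tumours and 455, 449.8, 287, 267 and 316 in the kidneys. Tumour 1 was far above the others, and the log2 change of 3.66 was 2.30 without it. The complement genes C1qa, C1qb and C1qc showed the same pattern, with changes of 2.25, 1.89 and 2.24 that were 1.37, 0.92 and 1.24 without tumour 1, at which C1qb no longer passed. Ccr2, of recruited monocytes, read 86.8, 185 and 22.6 and 289, 268, 195, 96.4 and 137 units with overlap (log2 change -1.26, adjusted p = 0.0421). Its call was lost without tumour 1, tumour 3, B61, B62 or KT1, at -1.46, -0.52, -1.10, -1.12 and -1.24, which left no gene of the list lower, and the change was -2.01 without tumour 2. Csf1r, the receptor that macrophages need, read 2427, 965 and 929 and 657, 436, 739, 956 and 1498 units and did not pass (0.94), but did so without KT3, at 1.17 (adjusted p = 0.0471). The macrophage share of these tumours was not measured, and its part in the other results was not tested.

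Most markers of other leukocytes did not pass, and their counts are to be set beside the 18.8% higher and 18.6% lower over all genes. Of 11 T and NK cell genes, Lck alone rose and none fell (median -0.70, or -0.68 with bounds). The list summed to 271, 127 and 67.8 units in the tumours and 171, 193, 119, 94.9 and 229 in the kidneys, led by Lck or Cd8a, and Cd3d, Cd3e and Cd2 were at 0 in tumour 3. Lck, a T cell kinase, read 107, 49.4 and 43.8 against 19.03, 32.1, 24.4, 29.2 and 34.2 units (log2 change 1.35 ± 0.44 SE, limma adjusted p = 0.0334). Its call was lost without tumour 1, B61, B62, KT1 or KT2, at 0.75, 1.22, 1.40, 1.31 and 1.37, and without tumour 1 2 genes were lower, with Cd8a (-2.13) among them. Of 6 B and plasma cell genes tested, 1 rose and 2 fell (median -1.07), in sums of 1046, 2358 and 1266 and 5882, 2340.0, 3029, 1512 and 1555 units led by Sdc1 in the tumours and Igj in the kidneys. Igj, the joining chain of secreted antibodies, read 143, 991 and 16.9 and 5637, 2120.5, 2782, 1220.4 and 1216 units (log2 change -3.98, or -2.53 without tumour 3). Sdc1, a plasma cell marker that epithelia also express, rose by 2.19. Cd79b changed by -1.80 and was lost without any of tumours 1 and 3 and B61, B62 and KT2, at -1.85, -0.72, -1.65, -1.69 and -1.64, which left 1 gene lower, and was -2.87 without tumour 2. Pax5 was at 0 in every MYC tumour. Of 6 neutrophil genes tested, 1 rose, close to the share over all genes (median 0.73), in sums of 159.5, 111 and 62.1 and 27.7, 38.8, 29.3, 52.6 and 61.99 units led by Csf3r, S100a8 or S100a9. It was Csf3r, the receptor for G-CSF (2.03), whose call was lost without tumour 1 (1.12). Without tumour 3 or KT3 S100a8 rose as well (1.91 and 1.99). Mpo and Ngp were at 0 in all 8 libraries.

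Endothelial genes were lower in the tumours. Of 11, 10 fell and Vwf alone did not pass, with a median log2 change of -3.03. Summed, they held 1884, 3231 and 429 units in the tumours and 9528, 8195, 9656, 7686 and 13483 in the kidneys, led by Plvap in every library. Kdr, for the VEGF receptor VEGFR2, read 61.6, 117 and 15.5 units against 888, 858, 1289.9, 704 and 1184, lowest in tumour 3 (log2 change -4.19 ± 0.27 SE, limma adjusted p = 1.66e-05). Tek, for the angiopoietin receptor TIE2, read 62.5, 57.1 and 4.24 and 522, 489, 710.1, 480.3 and 929.8 units, and Pecam1, for the adhesion molecule CD31, 196, 439.8 and 52.3 and 825, 684, 878, 768 and 1307. Neither overlapped, and both passed (log2 changes -4.19 and -2.33). Cdh5, for VE-cadherin, read 136, 474 and 66.4 and 372, 331, 489, 337 and 657 units, with tumour 2 among the kidneys, and its call (-1.43) was lost without tumour 3 (-0.73). Of 15 fibroblast and mural cell genes, 2 rose, 3 fell and 10 did not pass (median -0.51), near the 18.8% and 18.6% over all genes. None was lower with all 13 tissue animals in 1 model, and 1 with the 3 tumour libraries as independent. The list came to sums of 1888, 18011 and 5129.9 units in the tumours and 3799, 3183, 4274, 5708 and 8378 in the kidneys, led by Col1a2, Col3a1 and Acta2 in tumours 1, 2 and 3 and by Tagln, Acta2 or Col1a2 in the kidneys. Postn, a matrix protein of activated fibroblasts, read 64.4, 716 and 196 units against 8.65, 2.68, 4.89, 13.1 and 7.59, without overlap (log2 change 4.37 ± 0.77 SE, limma adjusted p = 0.0019). Col1a1, for collagen I, read 141, 2994 and 159.6 and 93.4, 89.7, 184, 331 and 406 units, high in tumour 2 alone, and did not pass (0.76). Acta2, for smooth muscle actin, read 101, 1265 and 2788 and 502, 554, 559, 818 and 921 units and did not pass (-0.58, and 1.53 without tumour 1). Pdgfra, Pdgfrb and Des fell (-1.83, -1.35 and -1.58), and without tumour 3 none did (-1.02, -0.52 and -0.70). Without tumour 2 Pdgfrb and Des changed by -2.19 and -2.45. Thy1, the other gene that rose (1.82), was lost without tumour 1 or 2 (1.61 and 1.24), in the latter case leaving 1 higher.

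**Figure D3:**
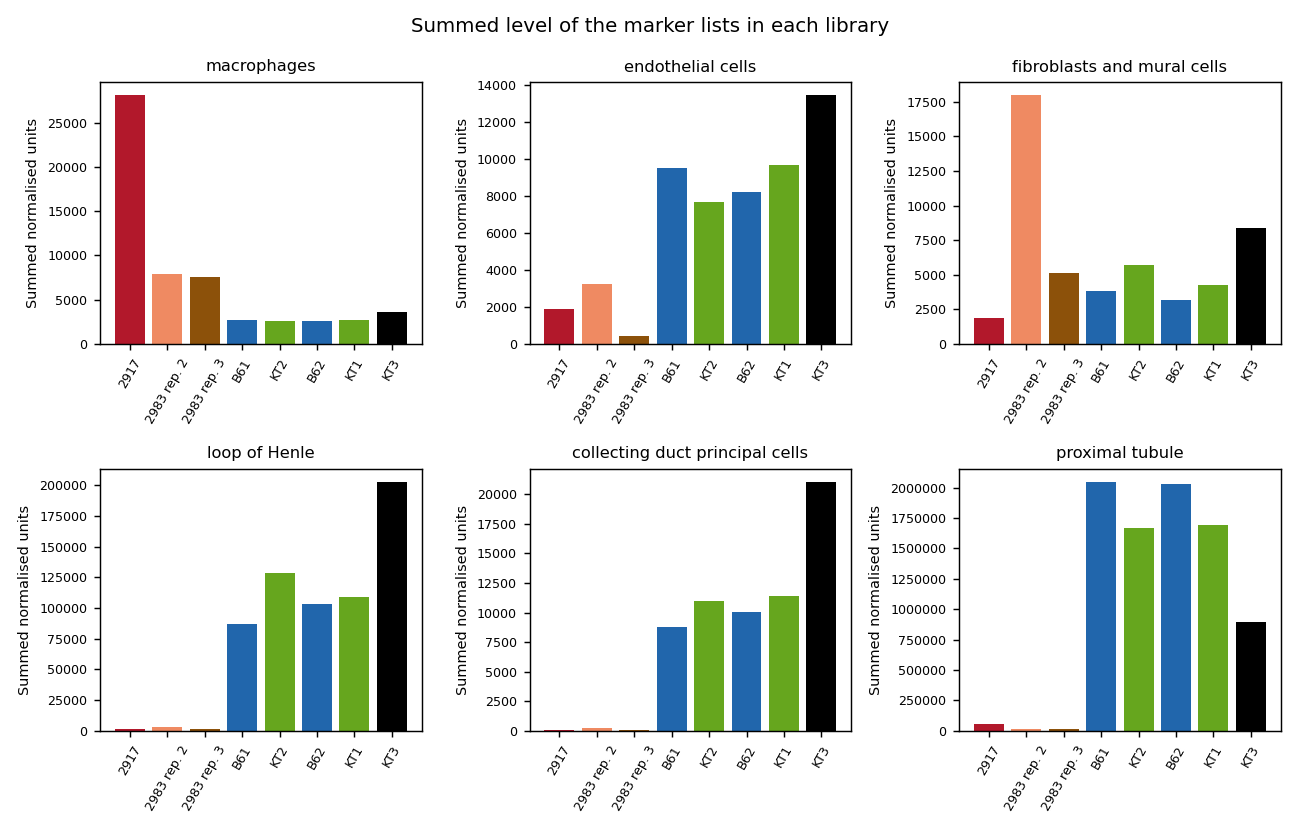
Summed normalised units of 6 marker lists in each of the 3 tumours and 5 kidneys, 1 bar a library with axes starting at 0. Macrophage genes sum to 7544 to 28138 units in the tumours and 2531 to 3576 in the kidneys, and collecting duct genes to 29.9 to 233 and 8740.5 to 21093.

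Of 22 genes of matrix and basement membrane, 12 rose, 2 fell and 8 did not pass (median 1.33, or 1.42 with bounds). The 2 that fell, Col4a3 and Col4a4, encode chains of the mature glomerular and tubular basement membrane, and read 80.2, 304 and 102 against 4528, 4715, 7534, 8482 and 8220.1 and 81.2, 273 and 52.3 against 3780.3, 3839, 4883, 4885 and 4672 units. Neither pair of groups overlapped (log2 change -5.75 ± 0.36 SE, limma adjusted p = 1.62e-05 for Col4a3, and a log2 change of -5.46 for Col4a4). Col4a1 and Col4a2, the chains found in most basement membranes, rose instead (1.58 and 1.21), with 10338, 11772 and 11068 units of Col4a1 in the tumours and 3083, 2675, 3922, 4089 and 4819.7 in the kidneys. Timp1, an inhibitor of matrix proteases, read 211, 301 and 199 and 12.1, 6.69, 1.63, 2.92 and 13.9 units (log2 change 5.05 ± 0.73 SE, limma adjusted p = 7.31e-04). The laminin genes Lama1, Lama5 and Lamc1 rose by 2.38, 1.72 and 2.26, and Loxl2, which crosslinks collagen, by 3.04, or 4.58 without tumour 1.

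Of 18 chemokine and cytokine genes tested, 7 rose, 2 fell and 9 did not pass (median 0.66, or 0.37 with bounds), beside 18.8% higher and 18.6% lower over all genes. With B62 left out, 4 were higher. Cxcl5 and Cxcl1, which attract neutrophils, read 188, 26.2 and 16.9 and 404, 169.8 and 192 units in the tumours and 1.73, 1.34, 0, 0 and 1.26 and 20.8, 14.7, 22.8, 24.8 and 6.33 in the kidneys. Both were highest in tumour 1, and Cxcl5 was at least 20.1-fold higher, or 4.16-fold without tumour 1. Cxcl1 rose as well (log2 change 3.97 ± 0.59 SE, limma adjusted p = 8.20e-04). Cxcl12, a stromal chemokine, fell, with 203, 222 and 60.7 against 2067, 1794, 2536, 2577 and 4039 units (log2 change -4.01 ± 0.32 SE, limma adjusted p = 4.77e-05). Csf1, which maintains macrophages, rose with 794, 448 and 542 units against 133, 133, 94.5, 102 and 235 (log2 change 2.23 ± 0.37 SE, limma adjusted p = 0.00149), and Il34, which binds the same receptor, read 214, 176 and 154 against 756, 841, 721, 634 and 133 and did not pass, but did so as lower without KT3 (-1.96). Of 18 genes of the interferon response and antigen presentation, none rose and 9 fell (median -1.04), and without tumour 3 the lower genes were 3. Ciita, the master regulator of MHC class II, read 27.1, 47.8 and 1.41 units against 96.9, 133, 119, 71.5 and 134 (log2 change -2.64 ± 0.45 SE, limma adjusted p = 0.00166), or -1.56 without tumour 3. The class II gene H2-Ab1 read 777, 1189.8 and 154 and 2062, 2542, 2062, 1293 and 2132 units, lowest by far in tumour 3 (log2 change -1.77, and -1.04 without it). The class I gene B2m read 7769, 6645 and 4383 and 6234, 8715, 7651, 4807 and 8458 units and did not pass.

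Of 11 tested genes that mark adrenal gland, fat, muscle, liver and urothelium, Alb alone fell and none rose (median 0.10, or 0 with bounds), beside 18.8% higher and 18.6% lower over all genes. Alb, for albumin, read 0, 10.8 and 0 units in the tumours and 196, 224, 147, 200 and 674 in the kidneys (log2 change -7.05 ± 0.68 SE, limma adjusted p = 1.02e-04). The fat gene Adipoq was at 0 in every kidney and in tumour 1, and read 35.5 units in tumour 2 and 186 in tumour 3. Cidec, also of fat, read 0.933, 37.04 and 114 and 0, 0, 0, 0 and 12.7 units and did not pass (2.75), but did so without tumour 1 (5.30) or KT3 (3.50), 1 gene then being higher in place of none. Cyp11b2 and Myh4, of adrenal gland and muscle, were at 0 in all 8 libraries. Of 4 erythroid genes tested, 3 fell (median -1.76), though 0 passed as lower with all 13 tissue animals in 1 model, in sums of 1919, 2142 and 554 units in the tumours and 9204, 3494, 4785, 7149 and 2939.9 in the kidneys, led by the haemoglobin gene Hba-a2 in every library. Hbb-b1 read 318, 435 and 109 against 2332, 738, 966, 1558 and 630.0 units (log2 change -2.06 ± 0.48 SE, limma adjusted p = 0.00756), and since both haemoglobin genes have near-identical copies, their reads may be divided between them.

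None of the 5 sex-linked genes passed in limma, where 37.4% of all genes did, and 9 of the 12 genes known to differ between male and female kidneys fell (medians 0.99 and -4.58). The 2 medians were 0.11 and -5.15 without KT3, and 0.99 and -5.36 without tumour 2. Without KT3 the Y-linked demethylase gene Kdm5d rose (1.06, adjusted p = 6.21e-04). Slco1a1 (mm9 chr6:141855803-141895483, minus strand), an organic anion transporter of male kidney that overlaps a 7SK copy on its strand, read 0, 1.54 and 0 units in the tumours and 28955, 28134, 32011, 25124 and 1073 in the kidneys. KT3 held the least of the kidneys, and the tumours were at least 4981-fold lower. Cyp4a12a, a male hydroxylase gene with a close copy in Cyp4a12b, changed by -10.36. Prlr, Akr1c18 and Slc7a12, higher in female kidney, read most in KT3, with 93.4, 83, 112, 613 and 9371 units of Prlr in the kidneys, and did not pass.

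Over all genes, the 12 largest falls among well-expressed genes without overlap were those of Slco1a1, Kap, Klk1, Slc7a13, Slc22a12, Pzp, Calb1, Slc22a22, Miox, Slc22a7, Slc22a28 and Slc22a6, ranked by fitted log2 changes from -13.51 to -11.20. Of these, 5 belong to the Slc22 family of organic ion transporters, whose members resemble each other in sequence, so that reads may be shared. Klk1, for tissue kallikrein of the distal nephron, read 0.933, 30.9 and 0 units in the tumours and 20564, 20979, 20235, 28964 and 34349 in the kidneys (log2 change -12.85 ± 0.39 SE, limma adjusted p = 6.93e-07). Slc7a13, a cystine and aspartate transporter of the late proximal tubule, read 2.799, 4.63 and 0 and 33265, 24616, 24648, 26905 and 865 units, with KT3 far under the other kidneys, and was at least 4765-fold lower. Pzp, a protease inhibitor, was at 0 in every tumour, at least 1204-fold lower. The 12 largest rises were those of Krt20, Lingo3, Lgi2, Sox1, Aqp9, Igdcc4, Exo1, Fcrls, Gpnmb, Drd4, Iqgap3 and Kif2c, from 9.51 to 7.33. Lingo3 read 415, 765 and 465 units in the tumours and 1.73, 0, 0, 0 and 0 in the kidneys, at least 99.2-fold higher. Lgi2, for a secreted leucine-rich protein, read 1119, 583 and 733 and 0, 2.68, 0, 1.46 and 3.795 units, at least 171-fold higher. Sox1, a transcription factor of the neural lineage, read 899, 70.99 and 816 and 1.73, 0, 0, 0 and 0 units and Drd4, the dopamine receptor D4, 102, 128 and 719 and 0, 0, 0, 0 and 0, at least 129-fold and 50.6-fold higher. Without tumour 1 these bounds were 85.5 and 81.6, and that of Drd4 was 79.1 without tumour 2 and 22.1 without tumour 3. Both were thus near or at 0 in kidney, Sox1 lowest in tumour 2 and Drd4 highest in tumour 3. Aqp9, an aquaglyceroporin, was at least 79.5-fold higher. The rises also held Fcrls, of the Fc receptor-like family, and Gpnmb, a membrane glycoprotein made by macrophages among other cells (7.49 and 7.48), and Kif2c, a kinesin of the mitotic spindle (7.33). Exo1, a DNA repair exonuclease, was at least 82-fold higher.

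The tumours also differed among themselves, which is described here without a test. The genes in which mouse 2917 stood farthest from both tumours of mouse 2983 were Sim2, Fam151a, Hspb8, Cldn19, Cfd and Bcl11a. Sim2, a transcription factor, read 0, 785 and 1236 units in the tumours and 38.1, 40.2, 81.4, 74.5 and 235 in the kidneys, so tumour 1 lay under and tumours 2 and 3 over every kidney. Fam151a read 373, 0 and 0 units in the tumours and 3324, 4039, 2698, 2047 and 2820.4 in the kidneys, so it was detected in tumour 1 alone among the tumours, under every kidney. Cfd, for the fat-derived complement factor adipsin, read 0.933, 301 and 1071 units and at most 1.26 in the kidneys, alongside the fat genes named above. Hspb8 and Bcl11a, a small heat shock gene and a zinc finger factor, read 4.66, 1080.2 and 1624 and 1.87, 434 and 250 units. Between the 2 tumours of mouse 2983, the widest gaps included those of Tdrd1, Rec8, Zfp521, Eras and Itm2a. Tdrd1 (mm9 chr19:56900699-56944502, plus strand), a germ cell gene of the piRNA pathway, read 2029.9, 2645 and 0 units in the tumours and 0 in every kidney. It was thus high in both animals but at 0 in tumour 3. Rec8, a meiotic cohesin gene, read 692, 602 and 0 units, and Itm2a 386, 370.4 and 0, both at 0 in tumour 3 as well, although the kidneys held 133, 162, 114, 24.8 and 37.95 units of Rec8. Zfp521, a zinc finger factor, read 5.597, 455 and 0 units, and Eras, a RAS gene of embryonic stem cells, was seen in tumour 3 alone, at 379 units. Against kidney, the values of most of these genes depended on single libraries. Without tumour 1, the log2 changes of Sim2, Hspb8, Bcl11a and Fam151a went from -1.25, -1.53, 2.81 and -7.23 to 3.72, 2.40, 6.23 and -11.51. Without tumour 3, those of Rec8 and Itm2a went from 0.78 and 1.78 to 3.09 and 3.91, and that of Cldn19 was -5.04. That of Zfp521 went from -1.45 to -3.66 without tumour 2. Cfd passed barely (fitted log2 change 4.82, adjusted p = 0.0487), and did not pass without tumour 2 (5.27) or without any 1 kidney (4.76 without B61, B62, KT1 or KT2 and 5.05 without KT3), and was 8.92 without tumour 1.

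Against the VM and VIM tumours, which share the MYC transgene, few genes of the MYC tumours passed. With 2 MYC animals, that count is no measure of how alike the tumours are. Of 16607 genes tested, 5 passed (0.0301%), all lower in the MYC tumours, although 34 of the 91 that passed without tumour 2 and 9 of the 13 that passed with a pseudocount of 10 were higher. Of all genes tested, 2351 (14.2%) had an unadjusted p under 0.05 in limma. The median log2 changes of the lists ran from -1.42 (neutrophils) to 2.19 (T and NK cells), beside 0.13 over all genes. They were -1.23 for HIF targets outside glycolysis and -1.07 for glycolysis, although no gene of either list passed. Summed glycolysis units were 73792 to 128154 in the MYC tumours and 161272 to 248593 in the VM and VIM tumours. The 2 MYC animals serve both comparisons. The 5 genes are named because they are so few, and Angpt1, Me1 and D630023F18Rik were singled out after their values were seen. Afp, the fetal liver protein alpha-fetoprotein, read 63.4, 432 and 133 units in the MYC tumours, 2453, 3694 and 5859 in the VM and 3090.4, 2163 and 4562 in the VIM tumours. Each VM and VIM tumour lay above each MYC tumour (log2 change -4.78, limma adjusted p = 0.0423), while Afp was also higher in the MYC tumours than in kidney, which read 29.4, 13.4, 26.1, 37.96 and 37.95 (log2 change 2.14, adjusted p = 0.0177). Angpt1, for the vessel growth factor angiopoietin 1, read 15.9, 10.8 and 0, 1686, 834 and 928 and 79.1, 93.98 and 132 units in the same order (-5.44, adjusted p = 0.0423), with VM above VIM and both above every MYC tumour. Idh1 read 4466, 4269 and 3856 units in VM and 4448, 3322 and 4378 in VIM tumours, over the MYC tumours named above (-1.75, adjusted p = 0.0482). Me1, the cytosolic malic enzyme, read 609, 349 and 888, 3422, 3459 and 4021 and 2808, 1506 and 2676 units (-2.29, adjusted p = 0.0423). D630023F18Rik read 15.9, 9.26 and 12.7, 290.3, 228 and 351 and 254, 175 and 543 units (-4.35, adjusted p = 0.0423). Without tumour 1, only Angpt1 of the 5 passed, at -6.59, while the log2 changes of Afp, D630023F18Rik, Idh1 and Me1 were -3.83, -4.60, -1.88 and -2.36 with adjusted p of 0.0975, 0.124, 0.216 and 0.214. Without tumour 3, Afp was at -4.36 (adjusted p = 0.0621). The count itself depended on the library left out, at 2 without tumour 1, 91 without tumour 2 and 8 without tumour 3. Of the genes above, Myc read 409, 462 and 801 units in VM and 397, 476 and 339.6 in VIM tumours and did not pass against the MYC tumours (log2 change -0.65). Cdkn2a read 4298, 4347 and 3392 units in the VM tumours and 33.9, 30.1 and 95.5 in the VIM tumours, which are labelled Ink−/−/Arf−/−. Reads thus remained above the floor in all 3 VIM tumours, over every kidney, and which bases of the locus they cover was not tested. Against the mean of both groups Cdkn2a did not pass (-1.02), but MYC tumour 2 and the other MYC tumours lay on either side of that mean, as did VM and VIM, so that nothing is read from it.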

How the data were processed

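RNA was extracted with Qiagen RNeasy, and libraries were made with the TruSeq Stranded mRNA kit and read as pairs. The study's methods name MapSplice for alignment to mm9, UBU for filtering, and RSEM with UCSC genes for gene abundance, and the submitters' processing notes list Picard 1.64, SAMtools, RSEM and mm9. The deposited values are a normalised signal, made by the authors from estimated reads by upper quartile scaling to 1000 in each library, without division by gene length. Whether RSEM counting used strand is not given in the sources used here, so genes that overlap on opposite strands may share reads. Reads may also be shared among close copies, such as Npm1 and its pseudogenes and the Cyp4a, Slc22 and Klk1 families. The table held 21705 genes (1 symbol was listed more than once) in 38 libraries. The genes Hmgcs1, Mzb1, Ly6g, Hba-a1 and Hbb-b2 of the lists were not found in it under those symbols.

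Values were analysed as log2(value + 1) with limma 3.58.1 in R 4.3.3 (lmFit, then eBayes with a trend), two-sided, with Benjamini-Hochberg adjustment over all genes above 0 in at least 2 of the 7 animals. The 2 libraries of mouse 2983 were averaged on the log2 scale, which leaves 2 tumour animals and 5 kidneys. The second comparison took 2 MYC, 3 VM and 3 VIM animals and tested MYC minus the mean of VM and VIM. P-values measure the spread between these animals only. The procedure was tested on simulated data. Gene positions are those of the GENCODE annotation of mm9, and promoter windows those of RefSeq on another build, used for their own sequence only. Tables and plots were made in Python 3.11.15 with pandas 2.3.3, numpy 2.4.6 and matplotlib 3.10.9.

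Tumours and lists were chosen with earlier results of these data known. Genes named are those of the lists, led within each list by the largest changes among those that passed and averaged 50 units or more in whichever group was higher. Added to these are the 12 largest rises and 12 largest falls under the same minimum with no overlap between groups. For spread among tumours, 6 genes that set mouse 2917 apart and 6 that differed most within mouse 2983 were taken, among genes reaching 200 units in any library. Angpt1, Me1 and D630023F18Rik were chosen after their values were seen. Some genes that these rules name are counted but not reported here.

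The worth of 1 read was taken as the commonest value between 0 and 3 units in each library. In the tumour and kidney libraries, VM and VIM tumours included, 94.6% to 95.9% of values up to 20 reads were then whole within 0.02 of a read. The floor of 3 reads covers counting error only. Alternatives were pseudocounts of 0.1 and 10, other filters, TMM and quantile scaling, other treatments of the variance and of the tumours of 1 mouse, B6 or KT kidneys alone, all 13 tissue animals in 1 model, and each library left out in turn. For the model with the animal as a block, the correlation was estimated gene by gene by restricted maximum likelihood and summarised by a trimmed mean (-0.185), in place of limma's own routine, which gave no value. After seeing the data, edgeR 4.0.16 on recovered reads (reads of 1 animal summed) and a comparison without KT2 and KT3 were added.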

Additional observations from a re-analysis of the deposited data

Results flagged for a closer look

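Of 256 genes named above, 44 had 1 kidney so far from the nearest of the others that the gap, divided by the whole range of the 5 kidneys, lay above Dixon's 95% limit. Chance alone gives such a kidney in about 1 in 20 groups. That kidney was KT3 as the highest in 27 genes and KT3 as the lowest in 7, and what sets KT3 apart was not tested. The gap as a share of the range is given in parentheses. Of genes of the tubule, KT3 was the highest kidney in Aqp2 (0.768), Aqp4 (0.794), Scnn1g (0.721), Hsd11b2 (0.767), Atp6v0d2 (0.844), Atp6v1b1 (0.729), Cldn19 (0.752), Lrp2 (0.824) and Slc34a3 (0.905). It was also highest in the sex-linked or sex-biased genes Xist (0.941), Slc7a12 (0.946), Prlr (0.943) and Akr1c18 (0.765). In genes of matrix, stroma, injury and signalling it was highest in Lamc1 (0.764), Des (0.821), Pdgfra (0.793), Spp1 (0.811), Cdh6 (0.865) and Csf1 (0.725). Genes of other kinds in which it was highest were Cfd (1.0), Cidec (1.0), Alb (0.854), Pax5 (1.0), Sim2 (0.78), Esrrb (0.875), Cdkn1c (0.834) and Slc7a5 (0.733). For Cfd, Cidec and Pax5 the other 4 kidneys were at 0, which fixes the ratio at 1.0. Cfd in KT3 lay under its floor, at 1.265 against 3.795 units, so nothing is read from its ratio. KT3 was the lowest kidney in Ddx3y (0.737), Kdm5d (0.863), Me1 (0.786), Slc22a12 (0.815), Slc22a6 (0.746), Slc7a13 (0.733) and Slco1a1 (0.777), among them Y-linked genes and transporters of the proximal tubule. The other kidneys stood apart in few genes. KT2 was highest in Ehhadh (0.732) and Mycl1 (0.858) and lowest in Cd3d (0.725) and Twist2 (0.731), and KT1 was highest in Mnt (0.736) and Slc16a3 (0.755). B61 was highest in Lingo3 (1.0) and Sox1 (1.0), where the other 4 kidneys shared 1 value, and lowest in Mcm6 (0.711), and B62 was highest in Cd2 (0.915). For Lingo3 and Sox1 B61 held 1.73 units, under its floor of 5.19 units, so nothing is read from these 2 ratios.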

How the results depend on the processing

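Of 247 named genes tested against kidney, 194 passed. All of these kept their direction in each of the 23 other settings in which they could be tested, and 158 passed in each. The settings in which most of the 194 no longer passed were the B6 kidneys alone (22 genes), all 13 tissue animals together (13), the KT kidneys alone (12) and no moderation of the variance (11). The number of genes that passed ran from 5843 to 6434 with 1 library left out, with 2876 to 3320 higher and 2732 to 3236 lower, and from 5349 to 6557 in the other settings. With TMM scaling, 46.1% of the genes that passed were higher, beside 50.2%. On recovered reads, edgeR called 6118 genes. Of the low values, 94.6% to 95.5% were whole in the 8 libraries. Kidney KT1 was not marked as having whole reads recovered, although 95.38% of its low values were whole. Its rounded values entered this test all the same.

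Small list counts moved by over 1.5 times in several settings beyond those named above. With the B6 kidneys alone, the lower genes went from 9 to 5 in the interferon list, from 2 to 1 in glycolysis, from 2 to 0 among HIF targets and from 1 to 0 among EMT factors and glutamine genes. The higher genes went from 3 to 5 in cholesterol and fatty acid synthesis, from 0 to 2 among sex-linked (also without KT2 and KT3) and from 0 to 1 among sex-biased genes. With the KT kidneys alone, the lower genes went from 3 to 1 in cholesterol and fatty acid synthesis and from 2 to 1 in nucleotide synthesis, and the higher chemokine genes from 7 to 4. The last 2 counts were the same with no moderation, and 4 chemokine genes were higher with no filter. With all 13 tissue animals, 4 interferon genes were lower. With quantile scaling, 1 interferon gene was higher, and the lower genes were 1 in glycolysis, 1 among HIF targets and 0 among glutamine genes. The single lower gene of the G1 list was lost in 7 settings other than leaving out a single library, and that of the macrophage list in 10. For T and NK cells the higher gene was lost with no filter, all 13 tissue animals, either kidney prefix alone and without KT2 and KT3, and 1 gene was lower with a pseudocount of 0.1 or the tumour libraries as independent or as a block. In the last 2 settings 1 gene of other tissues was higher. The lower B and plasma cell genes went from 2 to 1 in 8 such settings, and the higher neutrophil genes ranged from 0 to 3.

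Some named genes that did not pass in the comparison as reported passed with the opposite sign in another setting. Without tumour 1 these were Acta2 (1.53), Car9 (1.37), Grb10 (-1.25), Sim2 (3.72) and Hspb8 (2.40). Over all libraries left out in turn, the log2 change ran from -0.86 to 1.53 for Acta2, from -1.15 to 1.37 for Car9, from -1.25 to 1.43 for Grb10, from -1.49 to 3.72 for Sim2 and from -1.72 to 2.40 for Hspb8. With B6 kidneys alone, Akr1c18 changed by 3.31 and Xist by 3.38, and without KT2 and KT3 Xist changed by 2.64, a setting chosen after seeing the data. The cause was not tested. Without tumour 1 a single tumour animal is left and is assumed to vary like the kidneys.

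Against the VM and VIM tumours, 5 genes passed, all lower. With a pseudocount of 10, 13 passed, 9 of them higher, and with quantile scaling 1 of those that passed was higher. With 1 MYC tumour left out in turn, 2 to 91 genes passed, 0 to 34 higher and 2 to 57 lower. D630023F18Rik had a log2 change of -3.68 with a pseudocount of 10, beside -4.35, and did not pass (adjusted p = 0.0532). The cause was not tested.

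No paired analysis was possible because tumours and kidneys come from different animals and their numbers were given in accession order. Limma's own estimate of the correlation within an animal could not be had, and the block was run with the substitute described above (6557 genes passed). Below the floor of 3 reads, differences were not detectable at this depth.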
